A study of Rattus norvegicus with 27 samples.

Results

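The solute carrier families that exchange or cotransport small ions were followed through the maturation of rat parotid acinar cells. Members were all genes whose symbol begins with Slc4a, Slc8a, Slc9a, Slc12a, Slc13a, Slc20a, Slc24a, Slc26a or Slc34a, without Slc12a2, and each was read by its brightest probe set over the 27 arrays. This gave 46 of the 14217 genes named by a single symbol. They comprised 7 members of Slc4, 8 of Slc26, 6 of Slc9, 7 of Slc12, 3 of Slc8, 4 of Slc24, 5 of Slc13, 2 of Slc20 and 3 of Slc34. The prefix rule also took in 1 gene that encodes no transporter, Slc4a1ap (kanadaptin, named for its binding to the red cell anion exchanger). The parotid is the serous salivary gland, and its acinar cells were captured by laser from stained sections of Sprague Dawley rats before birth on embryonic days 18 and 20 (E18, E20), on the day of birth (P0) and at 6 later ages (P2, P5, P9, P15, P20, P25), named by the day after birth. Each age had 3 arrays from separate litters, with no treatment and no genetic change in any group. The study grouped the ages from these same arrays into stage 1 (E18, E20, P0), with 9 arrays, and stages 2 (P2, P5), 3 (P9, P15) and 4 (P20, P25), with 6 arrays each. Whole heads were cut for the ages through P5 and isolated glands for those from P9, so age and preparation cannot be told apart across that step. In captured tissue, fewer cells of a type and less RNA per cell cannot be told apart either.

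Acinar cells make the watery primary saliva by loading chloride across the basolateral membrane, which the sodium-potassium-chloride cotransporter Slc12a2 does directly and which paired chloride-bicarbonate (Slc4) and sodium-proton (Slc9) exchangers do together. Bicarbonate exchangers of the Slc26 family sit mostly in apical membranes, potassium-chloride cotransporters of the Slc12 family let chloride out again during volume control, and Slc8 and Slc24 exchangers remove calcium after a secretory stimulus. Slc13, Slc20 and Slc34 carry sulphate, dicarboxylates and phosphate with sodium.

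The captures carried the acinar programme. Mean levels of 9 acinar marker genes lay between 12.40 and 13.07 log2 units on the stage 4 arrays and between 4.35 and 6.78 on the stage 1 arrays, and 9 of 9 markers were higher in stage 4. Other tissue was also present. The mean of 14 skeletal muscle markers varied between 5.06 and 12.07 over the arrays, and epidermal markers reached 12.23, 12.01, 11.22 and 12.27 in the first replicates of E18, E20 and P0 and the second replicate of P5. Fibroblast markers were lower in stage 4, at 8.87 to 9.86, against 10.06 to 11.30 in stage 1, with 7 of 9 past the test. Cartilage and bone markers were lower too, at 4.85 to 5.66, against 5.85 to 9.94 (3 of 8 lower, 0 higher). Myoepithelial markers overlapped between these stages, at 6.79 to 8.12 and 6.75 to 8.17 (5 of 8 higher, 2 lower). Salivary duct markers were higher in stage 4, at 7.15 to 7.81, against 5.89 to 6.96 in stage 1 (7 of 12 higher, 1 lower), as were lymphocyte and plasma cell markers, at 6.10 to 6.50, against 4.09 to 4.70 (6 of 8 higher, 0 lower). Beside these marker counts, 27.2% of all probe sets were higher in stage 4 than in stage 1 and 17.8% lower. Levels are log2 values, on which a difference of 1 is a 2-fold difference. Levels of 1 gene are not set against those of another.

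Most of the members were dim. The mean level over the 27 arrays lay below the median of all values (6.04) in 35 of 46 members, and 26 had every age mean below it. In the moderated F test over the 9 ages (limma, adjusted over all 31042 probe sets, threshold 0.05) 13 of 46 members passed, 28.3%, beside 24.5% of all probe sets. In stage 4 minus stage 1, 18 members were higher (39.1%, beside 27.2% of all probe sets) and 4 were lower (8.70%, beside 17.8%). With all probe sets cut into 10 equal groups by mean level, and weighted as the members fell into them, the shares were 33.8% higher and 8.96% lower, so the members' counts lay near the background at their levels. The 18 included 17 of below-median level. In P25 minus E18, 11 members were higher (beside 20.1% of all probe sets) and 4 lower (beside 13.4%). Between neighbouring stages few members passed. Stage 2 minus stage 1 gave 0 higher and 0 lower (beside 1.63% and 1.33% of all probe sets), with 6 members at an unadjusted p under 0.05, and stage 3 minus stage 2 gave 0 and 0 (beside 0.28% and 0.48%), with 7 such members. Stage 4 minus stage 3 gave 1 higher (beside 4.09%) and 2 lower (beside 4.27%), and the mid-development contrast, which sets stages 2 and 3 together against stages 1 and 4 together, gave 2 higher (beside 2.05%) and 1 lower (beside 1.34%).

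The levels of the whole array drifted with age. The median of all probe sets was 0.192 higher in stage 4 than in stage 1 and 0.245 higher in P25 than in E18, so changes in these contrasts are given relative to that median, while their adjusted p refers to the unshifted change. The drift depended on level. In stage 4 minus stage 1 the median change was 0.38 to 0.45 in the 4 dimmest of the 10 level groups and -0.39 in the brightest, and the spread of the arrays narrowed, with SDs of 2.05 to 2.26 in stage 4 and 2.28 to 2.41 in stage 1. The part of this drift in the members' changes was not tested further than by renormalising the arrays. Of the 22 calls in stage 4 minus stage 1, 12 were also made after quantile normalisation and 10 after cyclic loess, an alternative chosen after seeing the data. These 10 were Slc12a3, Slc12a4, Slc12a8, Slc20a1, Slc24a4, Slc26a1, Slc26a6, Slc4a11, Slc4a7 and Slc8a1.

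**Figure D1:**
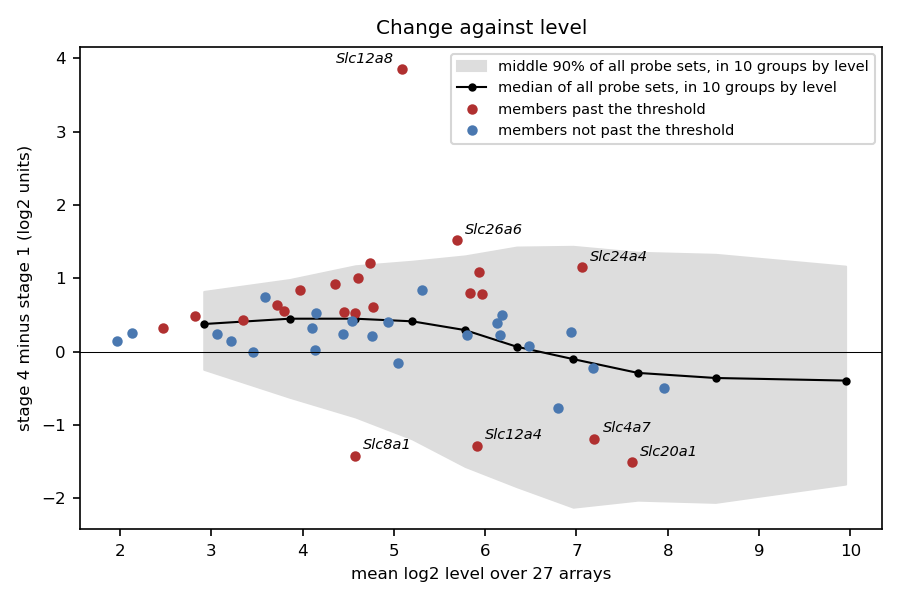
Stage 4 minus stage 1 difference (log2 units, vertical) against mean log2 level over 27 arrays (horizontal) for the 46 members, in red where the adjusted p was under 0.05 and in blue otherwise. The black line joins the medians of all probe sets in 10 equal groups by level and the grey band holds their middle 90%. The line falls with level and crosses 0. Slc12a8 stood above the band, Slc26a6 just above its upper edge and Slc8a1 below it. Most other called members that were higher lay within the band, as did Slc20a1, Slc12a4 and Slc4a7, which were lower.

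In 7 members the stage 4 arrays did not overlap the stage 1 arrays, 4 higher (Slc12a8, Slc26a6, Slc24a4 and Slc26a1) and 3 lower (Slc20a1, Slc12a4 and Slc4a7). The share of all probe sets without such overlap was not computed, so this count has no background beside it. Of all probe sets 27.2% were called higher and 17.8% lower in this contrast. These 7 members also passed the test in stage 4 minus stage 1 under every alternative in which they were tested and with each array left out in turn. Separation and test rest on the same arrays, so the calls add little to the separation. The 3 that were lower moved with the fibroblast and cartilage markers above and the 4 that were higher with the acinar, duct and lymphocyte markers. The part of these markers in the result was not tested beyond the fit with muscle, epidermal and cartilage markers as covariates. RefSeq promoter sequences (GRCr8) were found for 4 of them, and for 40 of the 46 members. The 250 bases before the start site are printed because these genes moved in opposite directions on the same arrays. Capitals mark CCACG, the core of the box bound by XBP1, the stress-response factor of secretory cells, on either strand. The sequences are Slc12a8 (chr11:80770916-80771165, minus strand, CCACG at -90 from the start site), Slc24a4 (chr6:127044220-127044469, plus strand, at -10), Slc26a1 (chr14:1184721-1184970, plus strand, at -107) and Slc12a4 (chr19:50770123-50770372, minus strand, none).
Slc12a8: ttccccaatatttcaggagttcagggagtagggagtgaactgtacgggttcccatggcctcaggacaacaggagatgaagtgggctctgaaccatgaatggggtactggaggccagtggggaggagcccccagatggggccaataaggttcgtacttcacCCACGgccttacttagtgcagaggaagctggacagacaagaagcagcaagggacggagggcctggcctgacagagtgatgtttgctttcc
Slc24a4: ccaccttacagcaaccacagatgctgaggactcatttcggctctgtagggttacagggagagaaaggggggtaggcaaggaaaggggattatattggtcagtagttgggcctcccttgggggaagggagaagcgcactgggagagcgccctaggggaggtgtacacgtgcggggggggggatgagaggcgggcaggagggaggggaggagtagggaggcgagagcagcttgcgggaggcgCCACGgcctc
Slc26a1: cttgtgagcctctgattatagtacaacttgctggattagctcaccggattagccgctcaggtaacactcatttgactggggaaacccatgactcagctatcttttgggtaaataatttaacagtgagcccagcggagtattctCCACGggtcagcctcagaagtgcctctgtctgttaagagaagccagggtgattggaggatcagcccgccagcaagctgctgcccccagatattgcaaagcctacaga
Slc12a4: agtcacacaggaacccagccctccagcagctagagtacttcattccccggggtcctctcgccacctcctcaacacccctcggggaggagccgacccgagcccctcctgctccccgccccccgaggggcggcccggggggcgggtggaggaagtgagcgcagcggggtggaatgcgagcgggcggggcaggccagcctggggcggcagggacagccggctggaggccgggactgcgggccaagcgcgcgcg
CCACG occurred in 17 of the 40 member promoters (42.5%) and in 27.8% of all 27457 promoters of this length. Slc12a7, Slc13a3 and Slc26a2, which were not called in stage 4 minus stage 1, held 3 matches each. Of the printed sequences only that of Slc12a4 belongs to a member that was lower, so matches cannot be set against direction. CAGCTG, an E-box that MIST1, the acinar transcription factor, can bind, occurred on either strand in 2 of the 40 (5%), Slc12a3 and Slc34a3, and in 12% of all promoters. The 2 motifs do not overlap each other, and a match describes the letters only.

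Among the cation-chloride cotransporters, Slc12a8 made the largest change of any member. It belongs to this family by sequence, and its substrate is not settled. The P25 arrays read 7.94, 7.01 and 7.44 and the P20 arrays 8.49, 7.49 and 7.78. The P15 arrays read 4.53, 4.52 and 5.58, so every P20 and P25 array lay above every P15 array. The stage 1 arrays lay between 3.47 and 4.13 (median 3.84), and those of stages 2 and 3 between 3.78 and 6.34, the highest in the first replicate of P2. The step was steep and late: stage 4 exceeded stage 3 by 2.99 ± 0.345 (SE, adjusted p = 8.26e-06, limma) and stage 1 by 3.66 ± 0.315 relative to the median (adjusted p = 7.88e-09). The same late rise made the mean of stages 2 and 3 lower than that of stages 1 and 4 (change -1.05 ± 0.233, adjusted p = 0.0133). P25 averaged 7.47 ± 0.46 and P20 7.92 ± 0.51 (SD, n = 3 each), a difference within their spread.

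Slc12a4 (KCC1, the widely expressed potassium-chloride cotransporter of volume control) moved the other way. Its stage 4 arrays read 4.57, 5.41 and 5.67 at P20 and 4.78, 5.01 and 4.92 at P25, against 5.93 to 6.81 (median 6.39) in stage 1. The groups did not overlap, and the change was -1.47 ± 0.209 relative to the median (adjusted p = 6.78e-05). At its level the median of all probe sets moved the opposite way, by 0.29, and the change relative to that was -1.57. Most of the fall came late, with stage 4 below stage 3 by a change of -0.88 ± 0.229 (adjusted p = 0.0196), a call lost without the second replicate of P9, the third of P15 or the first of P20, where the adjusted p reached at most 0.0612. It was also lost with only stages 3 and 4 in the fit.

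No fall passed for the other potassium-chloride cotransporters. Slc12a7 (KCC4) read 6.02 to 6.79 in stage 4 and 6.21 to 7.17 in stage 1, with overlap and a change of -0.11 ± 0.158 relative to the median (adjusted p = 0.709), and its 9 age means lay between 6.23 and 6.73. Its second, dimmer probe set passed the F test (adjusted p = 0.00886) and was higher in P25 than in E18 by 0.58 ± 0.286 relative to the median (adjusted p = 0.0307), whereas the brightest had a change of -0.49 ± 0.245 there (adjusted p = 0.455). Slc12a5 (KCC2, best known in neurons) was highest in mid-development. Its P5 arrays read 6.11, 6.13 and 5.83, while P20 read 4.54, 4.46 and 4.53 and E18 3.77, 4.41 and 4.42. Stages 2 and 3 exceeded stages 1 and 4 by 0.76 ± 0.193 (adjusted p = 0.0313), although the arrays of the 2 sets overlapped, with the second replicate of E20 at 6.08 and the first of P0 at 5.43. The call was lost without any of 6 single arrays (highest adjusted p 0.0655) and without the 4 arrays with high epidermal markers (adjusted p = 0.0721). Slc12a3 (NCC, the thiazide-sensitive sodium-chloride cotransporter of the kidney) read 6.85, 6.80 and 6.74 at P25 and 4.92, 5.73 and 5.60 at E18. Stage 4 was higher than stage 1 by 0.89 ± 0.231 relative to the median (adjusted p = 8.93e-04), with overlapping arrays, and the adjusted p was 0.0642 with the levels of muscle, epidermal and cartilage markers as covariates. Slc12a1 (NKCC2 of the kidney loop) passed narrowly, at 0.13 ± 0.127 relative to the median (adjusted p = 0.0415). Its unshifted change of 0.33 was below the 0.38 of its level group, and it had the opposite sign after cyclic loess.

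**Figure D2:**
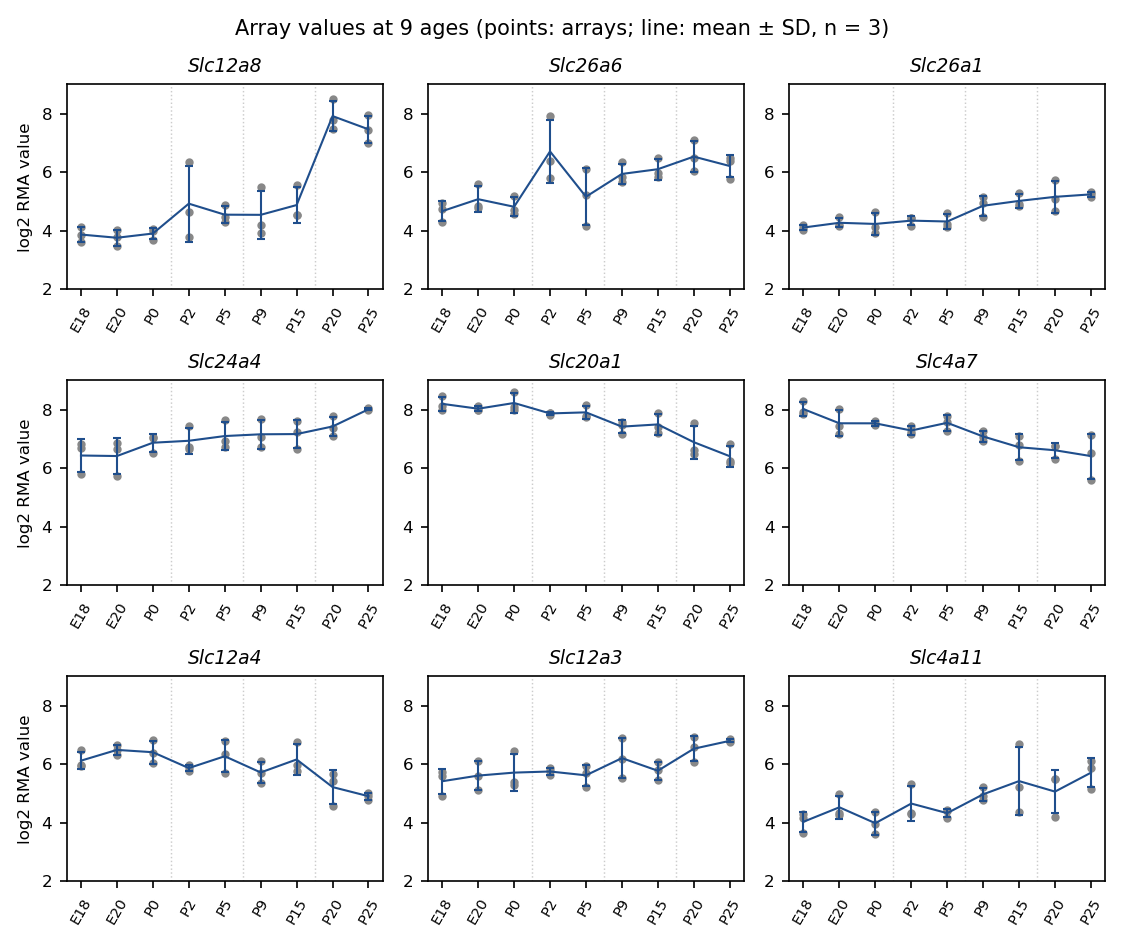
Log2 RMA values (vertical) of 9 members at the 9 ages (horizontal), with 3 arrays per age as grey points, age means as a blue line and SDs as bars. Dotted lines separate the 4 stages. Slc12a8 stepped up between P15 and P20, Slc26a6, Slc26a1, Slc24a4, Slc12a3 and Slc4a11 were higher at the late ages, and Slc20a1, Slc4a7 and Slc12a4 lower.

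Of the anion exchangers of the Slc26 family, 4 of 8 were higher in stage 4 than in stage 1 and 0 lower, beside 27.2% and 17.8% of all probe sets. Slc26a6 (PAT1, an apical exchanger of chloride for bicarbonate or oxalate) read 7.09, 6.03 and 6.48 at P20 and 6.37, 6.48 and 5.78 at P25. Stage 1 lay between 4.29 and 5.60 (median 4.79), all below stage 4, and the change was 1.33 ± 0.303 relative to the median (adjusted p = 4.96e-04). Its P2 arrays already read 5.82, 6.40 and 7.92, above every stage 1 array, but those of P5 spread over 5.21, 6.10 and 4.17. Stage 2 exceeded stage 1 by 1.08 ± 0.303, which did not pass (adjusted p = 0.0555), though it passed without probe sets that are dim at every age. Age means from P9 to P25 lay between 5.94 and 6.53, within the spread of the arrays.

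Slc26a1 (SAT1, an exchanger of sulphate, oxalate and bicarbonate) was higher late. Stage 4 arrays read 4.65, 5.73 and 5.08 at P20 and 5.24, 5.32 and 5.16 at P25, against 3.92 to 4.64 (median 4.16) in stage 1, with no overlap. The change was 0.81 ± 0.165 relative to the median (adjusted p = 7.95e-05). Stage 2 still lay between 4.13 and 4.59, within the range of stage 1, and stage 3 between 4.47 and 5.27. Stage 3 minus stage 2 came to 0.61 ± 0.181 without passing (adjusted p = 0.115).

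Slc26a8 (an anion transporter of the testis) and Slc26a5 (prestin, the motor protein of outer hair cells) were called higher by 0.72 ± 0.364 and 0.24 ± 0.147 relative to the median (adjusted p = 0.0453 and 0.0209), and both calls were lost under quantile normalisation and cyclic loess. The Slc26a8 arrays spread over 3.60 to 7.25 in stage 4 and 3.17 to 5.29 in stage 1, and the call was made in 10 of 27 fits that each left out 1 array. Slc26a2 (the sulphate transporter that cartilage needs) passed only the F test (adjusted p = 0.0479), in 6 of 27 such fits. It was lowest at P2, where the arrays read 3.80, 4.06 and 3.70, a range that only the first replicate of P15 (3.96) entered from another age. Slc26a4 (pendrin, an anion exchanger) did not pass, at 3.16 to 3.41 in stage 4 and 2.84 to 3.74 in stage 1 (change -0.05 ± 0.133 relative to the median, adjusted p = 0.381). The remaining 2, Slc26a3 and Slc26a10, passed no test.

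In the bicarbonate transporters of the Slc4 family, 1 of 7 was higher and 1 lower in stage 4 than in stage 1. Of all probe sets 27.2% were higher and 17.8% lower. Slc4a7 (NBCn1, an electroneutral sodium-bicarbonate cotransporter) read 6.75, 6.76 and 6.32 at P20 and 5.59, 6.53 and 7.12 at P25. All lay below stage 1, which ran between 7.16 and 8.30 (median 7.62), and the change was -1.38 ± 0.201 relative to the median (adjusted p = 1.04e-04). At its level the median of all probe sets moved the same way, by -0.10, and the change relative to that was -1.08. No step between neighbouring stages passed, with changes of -0.28 in stage 2 minus stage 1, -0.52 in stage 3 minus stage 2 and -0.39 in stage 4 minus stage 3. Its other, dimmer probe set had a change of -0.87 ± 0.376 relative to the median (adjusted p = 0.142).

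Slc4a11 (a transporter of the bicarbonate family known from the corneal endothelium) was higher by 1.02 ± 0.295 relative to the median (adjusted p = 0.00264). The P25 arrays read 5.86, 6.11 and 5.16 and the E18 arrays 3.64, 4.15 and 4.29, but the first P20 array, at 4.20, lay within the stage 1 range of 3.60 to 4.98. With the marker covariates its adjusted p was 0.131. Slc4a2 (AE2, the basolateral chloride-bicarbonate exchanger of acini) did not pass, at 6.80 to 7.54 in stage 4 and 5.61 to 7.54 in stage 1, with a change of 0.07 ± 0.238 relative to the median (adjusted p = 0.371). The lowest value came from the first replicate of E18, which had the epidermal, muscle and cartilage markers high. Slc4a4 (NBCe1, the electrogenic sodium-bicarbonate cotransporter) scattered widely, between 3.71 and 7.21 in stage 4 and between 2.59 and 6.32 in stage 1, and did not pass (0.64 ± 0.509 relative to the median, adjusted p = 0.184). Its second probe set, which varied less, was called higher by 0.79 ± 0.238 relative to the median (adjusted p = 0.00256). The other 3, Slc4a1, Slc4a3 and Slc4a10, passed no test by their brightest probe set. Slc4a1 (band 3 of the red cell) reached 7.66 in the third replicate of P9 and 5.20 in the second, its next highest value. The erythroid markers averaged 6.58 and 6.76 there, near the top of their range of 5.26 to 6.83 over all arrays. Only the first replicate of E18, at 6.83, lay above both, and Slc4a1 read 4.20 in it. The part of red cells was not tested. The dimmer probe set of Slc4a1 was lower in P25 than in E18 (change -1.89 ± 0.589 relative to the median, adjusted p = 0.0366).

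Of the 6 sodium-proton exchangers, 2 were called higher in stage 4 than in stage 1 and 0 lower, near the background of 27.2% higher. Slc9a8 (NHE8, found on endosomes and Golgi) was higher by 0.61 ± 0.252 relative to the median (adjusted p = 0.0136), reading 5.67 to 7.28 in stage 4 and 5.02 to 6.53 in stage 1. The groups overlapped, and the call was lost without the first replicate of P20 (adjusted p = 0.0517). Slc9a3 (NHE3, an apical exchanger of absorbing epithelia) was called higher by 0.45 ± 0.250 (adjusted p = 0.0419) but in only 18 of 27 fits with 1 array left out, and not after quantile normalisation or cyclic loess. Slc9a2 (NHE2, found in salivary acini and ducts) did not pass (0.55 ± 0.392 relative to the median, adjusted p = 0.124). It lay between 3.16 and 4.16 in stage 4 but for 6.06 in the third replicate of P25, and between 2.78 and 3.81 in stage 1. The remaining 3 members, Slc9a4, Slc9a5 and Slc9a9, passed no test.

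**Figure D3:**
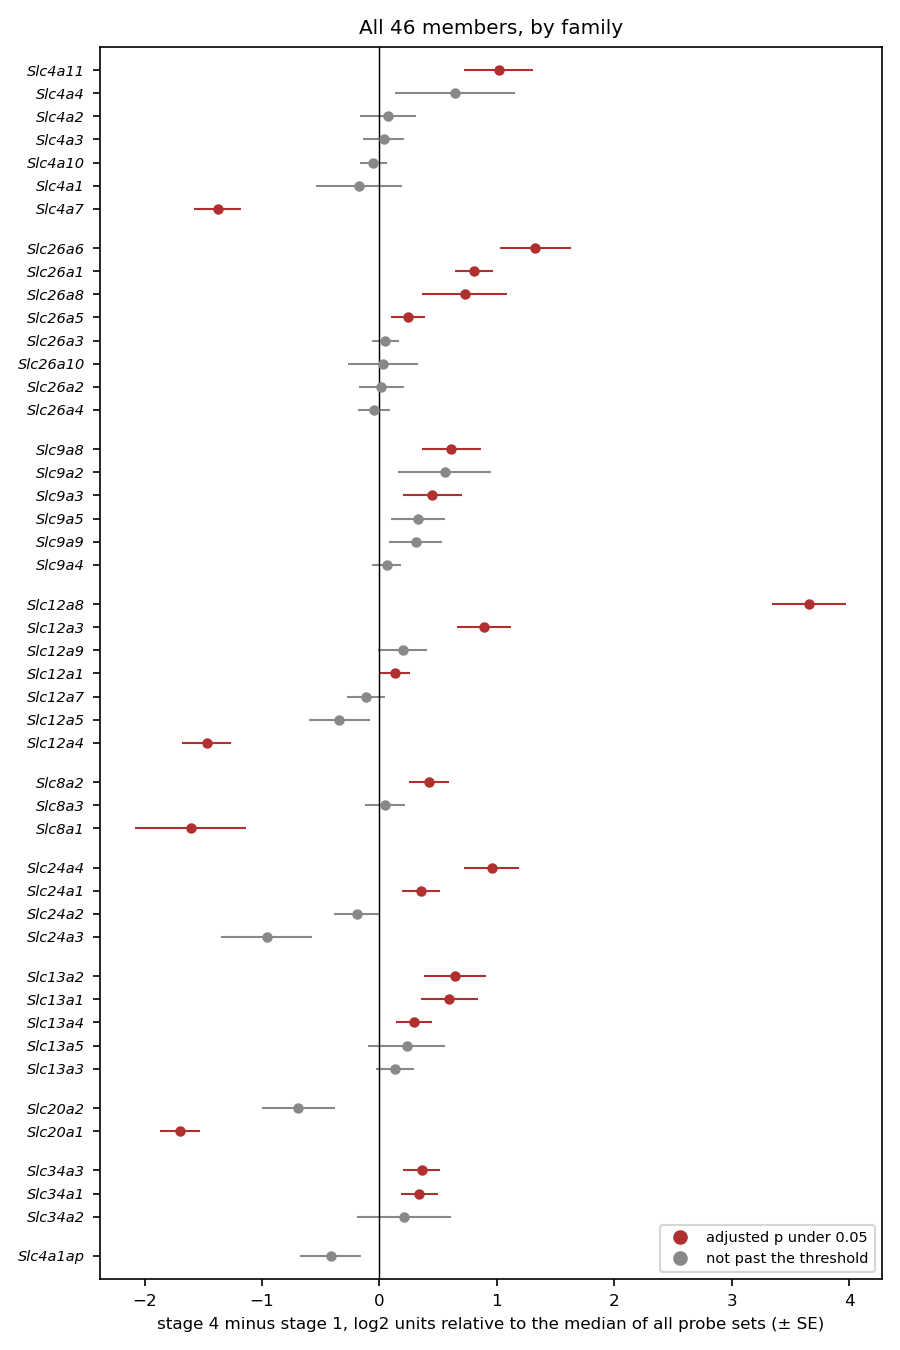
Stage 4 minus stage 1 difference of all 46 members (horizontal, log2 units relative to the median of all probe sets, bars ± SE of the unshifted change), grouped by family. Red points had an adjusted p under 0.05. Slc12a8 stands apart at 3.66, and the 4 called members that were lower lie between -1.70 and -1.38.

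In the calcium exchangers, Slc24a4 (NCKX4, a potassium-dependent sodium-calcium exchanger known from olfactory neurons and enamel cells) gave a rise that all 3 of its probe sets shared. The P25 arrays read 8.04, 8.03 and 7.98 and the P20 arrays 7.11, 7.78 and 7.38, against 5.72 to 7.07 (median 6.68) in stage 1, without overlap. The change was 0.96 ± 0.235 relative to the median (adjusted p = 6.33e-04), and the other probe sets gave 0.74 ± 0.177 and 0.48 ± 0.167 (adjusted p = 3.15e-04 and 0.00313). At its level the median of all probe sets moved the opposite way, by -0.10. Slc24a1 (the exchanger of rod photoreceptors) was called higher by 0.35 ± 0.163 relative to the median (adjusted p = 0.0104) and Slc8a2 (NCX2, known from brain) by 0.42 ± 0.172 (adjusted p = 0.00701), and both calls were lost under quantile normalisation and cyclic loess.

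Slc8a1 (NCX1, the sodium-calcium exchanger of heart muscle) was called lower, yet its probe sets disagreed. The brightest read 3.08, 3.90 and 3.08 at P20 and 3.29, 4.88 and 3.04 at P25, against 3.41 to 6.86 (median 4.87) in stage 1. The groups overlapped, and the change was -1.61 ± 0.472 relative to the median (adjusted p = 0.0193). Its call was lost without the third replicate of P25 (adjusted p = 0.0556). The highest values, 7.06 in the first replicate of P9 and 6.86 in the first of E18, came from arrays whose muscle markers averaged 9.11 and 10.37. The other arrays with muscle markers between 10.04 and 12.07 read both ways. The first replicates of E20 and P5 read 6.02 and 5.88. The first of P0 and the third of P5 and of P9 read 4.38, 4.42 and 4.47. Muscle markers also lay between 8.96 and 9.32 on P0 replicate 3, P9 replicate 2, P20 replicate 2 and P25 replicate 3. Slc8a1 read 3.41, 5.01, 3.90 and 3.04 there. Arrays with lower muscle markers read both ways too. On E18 replicate 3 and P0 replicate 2 these markers averaged 6.35 and 6.16, and Slc8a1 read 5.92 and 5.76. On E20 replicate 3 and P25 replicate 1 they averaged 5.97 and 5.65, and Slc8a1 read 3.44 and 3.29. The part of muscle was not tested separately. For stage 4 minus stage 1 the adjusted p was 0.253 with the marker covariates and 0.108 without the 4 arrays with high epidermal markers. The dimmer probe set of Slc8a1 went the other way without passing (0.34 ± 0.273 relative to the median, adjusted p = 0.119). Slc8a3, Slc24a2 and Slc24a3 passed no test.

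**Figure D4:**
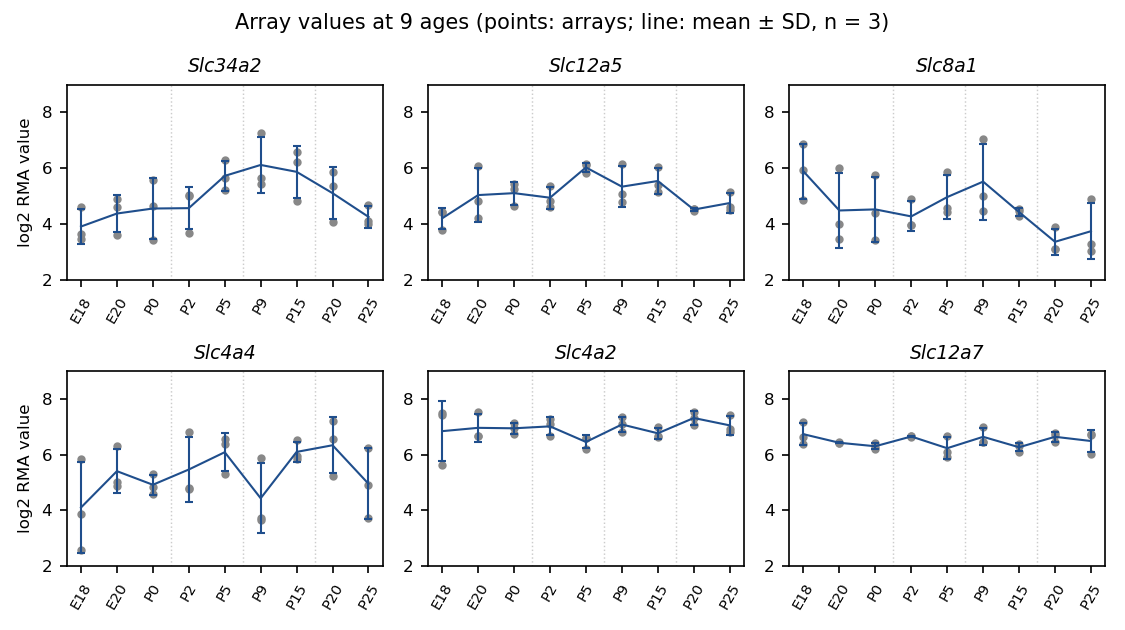
Log2 RMA values (vertical) of 6 members at the 9 ages (horizontal), with 3 arrays per age as grey points, age means as a blue line and SDs as bars. Slc34a2 and Slc12a5 were highest between P5 and P15, Slc8a1 and Slc4a4 scattered between arrays of 1 age, and neither Slc4a2 nor Slc12a7, each by its brightest probe set, passed a test.

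Of the phosphate and sulphate carriers, Slc20a1 (PiT-1, the widely expressed sodium-phosphate cotransporter) was lower in stage 4 than in stage 1. Its fall was the largest of any member relative to the median of all probe sets. The P25 arrays read 6.17, 6.82 and 6.24 and the P20 arrays 6.64, 7.54 and 6.50, against 7.98 to 8.62 (median 8.09) in stage 1. No stage 4 array reached stage 1, and the change was -1.70 ± 0.174 relative to the median (adjusted p = 9.93e-07). At its level the median of all probe sets moved the same way, by -0.29, and the change relative to that was -1.22. By that measure Slc8a1 (-1.86) and Slc12a4 (-1.57) fell further. Stage 4 was also lower than stage 3 by a change of -0.81 ± 0.191 (adjusted p = 0.0103), with overlap through the second replicate of P20, and this step was lost with only stages 3 and 4 in the fit. Slc20a2 (PiT-2) read 6.08 to 8.12 in stage 4 and 7.27 to 8.89 in stage 1 and did not pass (-0.69 ± 0.311 relative to the median, adjusted p = 0.195).

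Slc34a2 (NaPi-IIb, the phosphate cotransporter of lung, gut and secretory epithelia) was highest in mid-development. Its age means were 3.90 at E18, 5.72 at P5, 6.11 at P9, 5.87 at P15 and 4.25 at P25. The P9 arrays read 7.26, 5.66 and 5.42 and the P25 arrays 4.09, 3.98 and 4.69. Stages 2 and 3 exceeded stages 1 and 4 by 1.09 ± 0.295 (adjusted p = 0.0432), but the arrays overlapped, and the call was made in 11 of 27 fits with 1 array left out (highest adjusted p 0.0867). It was also lost with the marker covariates (adjusted p = 0.0777), without the 4 arrays with high epidermal markers (adjusted p = 0.0507) and with arrays centred on their medians (adjusted p = 0.0514). In the same contrast 7 of 9 adipocyte, 6 of 8 myoepithelial and 5 of 9 fibroblast markers were higher and 0 lower. Of all probe sets 2.05% were higher and 1.34% lower. The part of these markers in the results for Slc34a2 and Slc12a5 was not tested. The kidney phosphate cotransporters Slc34a1 and Slc34a3 were called higher in stage 4 by 0.34 ± 0.156 and 0.36 ± 0.158 relative to the median (adjusted p = 0.00941 and 0.00794), as were the sulphate carriers Slc13a1 (0.59 ± 0.245, adjusted p = 0.0132) and Slc13a4 (0.30 ± 0.153, adjusted p = 0.0138) and the dicarboxylate carrier Slc13a2 (0.64 ± 0.263, adjusted p = 0.0140). All 5 calls were lost under cyclic loess and all but that of Slc13a1 under quantile normalisation, and the dimmer probe sets of Slc13a1 and Slc34a1 did not pass. Slc13a3, Slc13a5 and Slc4a1ap passed no test.

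P25 minus E18 set 3 arrays against 3, which are also part of the stage contrast. Slc12a8 was higher by 3.36 ± 0.487 relative to the median (adjusted p = 1.85e-05), Slc4a11 by 1.44 ± 0.456 (adjusted p = 0.00862) and Slc24a4 by 1.34 ± 0.364 (adjusted p = 0.00299). Slc20a1 was lower, with a change of -2.04 ± 0.270 relative to the median (adjusted p = 6.19e-05), as was Slc4a7 with -1.85 ± 0.311 (adjusted p = 7.36e-04). All 11 members called higher and all called lower but Slc8a1 had arrays that did not overlap between the ages. With 3 arrays against 3 this adds little to the calls. Members that were not called, Slc12a1, Slc12a5, Slc13a1 and Slc13a3 among them, did not overlap either. The share over all probe sets was not computed. With only these 6 arrays in the fit 7 of the 15 calls were kept.

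Genes that work beside these carriers were read in the same way. Of 14 measured fluid secretion partners, 8 were higher in stage 4 than in stage 1 and 0 lower (median change 1.20 relative to all probe sets), where 27.2% of all probe sets were higher and 17.8% lower. They were Slc12a2 itself (2.30 relative to the median, adjusted p = 2.51e-10), the potassium channels Kcnn4 and Kcnma1, the chloride channels Ano1 and Cftr, the water channel Aqp5, the sodium pump subunit Atp1b1 and the calcium channel Orai1. Of 9 genes of the WNK kinase pathway, which switches the Slc12 cotransporters by phosphorylation, 3 were higher and 4 lower, beside the same shares. Its 2 effector kinases moved in opposite directions: Stk39 (SPAK) was higher by 2.58 ± 0.215 relative to the median (adjusted p = 3.68e-09), and Oxsr1 (OSR1) lower, with a change of -1.59 ± 0.238 (adjusted p = 1.13e-04). Wnk2 and Klhl3 were higher and Wnk1, Klhl2 and Cul3 lower.

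Of 7 partners of the sodium-proton exchangers, 3 were higher and 1 lower, beside 27.2% and 17.8% of all probe sets. Tesc (tescalcin, a calcium-binding protein) averaged 10.86 at P25 and 6.29 at E18 and was higher in stage 4 by 4.43 ± 0.255 relative to the median (adjusted p = 1.36e-11). Nherf2 and Camk2a were also higher and Ezr (ezrin, the membrane linker) lower. Of 15 genes listed for bicarbonate supply and its control, 6 were higher and 1 lower, beside the same shares. The carbonic anhydrases Car2 (3.51), the secreted Car6 (6.63), Car9 (3.90) and the mitochondrial Car5b (2.70) were higher, all relative to the median. These enzymes make bicarbonate from carbon dioxide. Car8 and Ahcyl2 were also higher, and Car11 was lower. The 4 plasma membrane calcium pumps share calcium removal with Slc8 and Slc24. Of them 1 was higher (Atp2b3, 0.23 relative to the median, adjusted p = 0.0312) and 0 lower, beside the same shares.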

How the data were processed

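Affymetrix rat whole-genome arrays measured mRNA in 27 captures at 9 ages. Per the labels and the study's methods, total RNA was amplified with a whole-transcriptome kit from 1.5 or 4.5 ng, and which array had which amount is not stated. The authors deposited log2 values made by robust multi-array average (RMA), which corrects background, normalises between arrays and summarises probes. The software version is not given in the sources used here. These log2 values were used as they stand, after 57 array controls were left out. Array medians lay between 5.91 and 6.13, correlations within an age between 0.873 and 0.962, and 0 pairs of arrays held identical values. No read depth applies. Precision is limited by the number of arrays.

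Probe sets were named from the platform annotation (20826 with 1 symbol, 436 with several, 9780 unnamed here), and gene IDs of 46 of 46 members were found in the reference gene table. Some genes of these families are not analysed here. The fit (limma 3.58.1, run under R 4.3.3) had 1 coefficient for each age, 18 residual degrees of freedom, two-sided contrasts and Benjamini-Hochberg adjustment over 31042 probe sets, checked on simulated data. Where the arrays are described as not overlapping, every array of a group lay beyond every array of the other. Members past any test were named with values (25), as were members known from salivary physiology (11 of 16 measured), 30 in all. The members, gene lists and alternatives were chosen with earlier results of these data known. Promoter sequences came from RefSeq (GRCr8), and motifs were searched on both strands of the 250 bases before each start site. No coordinates of the files' own build were used.

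Replicate numbers were checked as pairs. Over 108 pairs of same-numbered arrays of different ages, deviations from the age means correlated between -0.108 and 0.459 (median 0.014), with 11 over 0.1, so the numbers were not taken to pair the samples.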

Additional observations from a re-analysis of the deposited data

Results flagged for a closer look

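Of 120 combinations of a member and a stage of 6 or 9 arrays that were tested, 18 held 1 array far from the others by Dixon's test, where chance at 1 in 20 gives 6. The explanations were not tested.

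Single arrays stood high in 15 of them. In the third replicate of P25 they were Slc9a2 at 6.06 (next 4.16) and Slc12a5 at 5.15 (next 4.61). In the P2 arrays they were Slc13a1 at 7.31 and Slc4a11 at 5.33 in the second replicate, Slc13a4 at 3.46 in the first, and Slc9a8 at 6.18 and Slc24a1 at 4.80 in the third. Slc20a1 stood at 8.17 in the third replicate of P5. In the first replicate of P9, Slc8a1 stood at 7.06 (next 5.01) and Slc26a5 at 3.63, and in the third of P15 Slc4a11 stood at 6.68 (next 5.22). Among the stage 1 arrays they were Slc26a5 at 3.56 in the first replicate of E18, Slc12a7 at 7.17 in the second, Slc34a3 at 4.16 in the third, and Slc26a4 at 3.74 in the third replicate of P0.

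Single arrays stood low in the other 3. The first replicate of P20 read 3.44 for Slc34a3, and the first replicate of E18 read 5.61 for Slc4a2 and 3.84 for Slc34a1.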

How the results depend on the processing

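Counts of members called depended on how level-dependent drift and other tissue were handled. With 13 members past the F test, the count was 3 with the levels of muscle, epidermal and cartilage markers as covariates. It was 6 without the 4 arrays with high epidermal markers, 7 after cyclic loess and 8 without probe sets that were dim at every age. The last setting left 26 of the 46 members untested. Every call it lost, here and in the contrasts below, was of a member left untested. The F test count ranged from 6 to 13 with 1 array left out, and was 8 or fewer without E20 replicate 1, P0 replicate 1, P2 replicate 1, P5 replicate 1 or 3, P20 replicate 2 or 3, or P25 replicate 1 or 2. In stage 4 minus stage 1, 22 calls became 12 after quantile normalisation, 9 without dim probe sets and 10 after cyclic loess (17 to 22 with 1 array left out). With the marker covariates 10 calls were made. Of these 7 were among the 22, and Slc13a5, Slc24a3 and Slc9a5 were called only there. In P25 minus E18, 15 became 7 without dim probe sets, 7 with only those ages in the fit, 9 without the 4 arrays and 7 after cyclic loess (12 to 16). With the covariates there were 7 calls, of which 6 were among the 15. In stage 4 minus stage 3, 3 became 6 after quantile normalisation, 1 with only those ages and 5 after cyclic loess (2 to 4). In the mid-development contrast, 3 became 1 without the 4 arrays and ranged from 1 to 3, with 1 left without P2 replicate 2, P5 replicate 1, P15 replicate 1 or P25 replicate 1. Stage 2 minus stage 1, with 0 calls, gave 1 (Slc26a6) with the mean of all probe sets per gene or without dim probe sets (0 to 1, the 1 without E20 replicate 2, P2 replicate 1 or 2, or P5 replicate 3). Stage 3 minus stage 2 gave 1 with array weights (0 to 0). For Slc12a1 the stage 4 minus stage 1 change had the opposite sign after cyclic loess, at -0.052 (adjusted p = 0.791). The cause was not tested.

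Over the 30 named members, 245 of the refits kept the side of the threshold, 60 lost the call and 7 gained one. A called change took the opposite sign in 1 (Slc12a1). The 245 include refits in which a change that passed in neither fit had the other sign, as for Slc12a7, Slc4a2 and Slc26a4. With the replicate number as a block, the counts were 16 in the F test, 0, 0 and 3 between neighbouring stages, 21 in stage 4 minus stage 1, 17 in P25 minus E18 and 3 in the mid-development contrast. The block lost 1 call among the named members. Of the 27 arrays, 16 correlated best on average with arrays of their own number, a hint from the data and not from the design. Members near the lowest levels have little room to show a fall.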
